A study of Chlamydomonas reinhardtii with 9 samples.

Results

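Within iron-replete (Fe+) batch cultures of the green alga Chlamydomonas (Chlamydomonas reinhardtii), cells carrying many transcripts of genes that peak in the early morning were compared with cells of the same culture carrying few. The cells were ranked with 705 genes to which the study's list of rhythmic genes assigns a diurnal phase of 1.5 h (255 genes), 2 h (220 genes) or 2.5 h (230 genes). Only cells with at least 1000 unique molecular identifiers (UMIs, the tags that mark single captured transcripts) were used. Each of them was thinned by random draw to 1000 UMIs, so that all cells were compared at the same depth. The cells were selected on their UMIs in the ranking genes: within each library, the 25% of cells with the most are called list-rich here, and the 25% with the fewest are called list-poor. The list-rich cells numbered 5718 (2918 in experiment 1 and 2800 in experiment 2), out of 22875 cells with enough UMIs in the pair of libraries and 73141 cells in the 9 libraries of the series.

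Both libraries came from strain CC-5390 (cw15 arg7-8::ARG7 mt+), which lacks a cell wall. The cultures had been kept in constant light in Tris-acetate-phosphate medium with acetate, ammonium and iron. Experiments 1 and 2 each contributed a single Fe+ culture and a single Chromium 3′ library, sequenced on different instruments, and these 2 libraries are the replicates of every test below. The other 7 libraries, used only for comparison, were iron-starved (Fe−) CC-5390 of each experiment, a mixture of the Fe+ and Fe− cells of experiment 1 (Mix), nitrogen-starved (N−) CC-5390 loaded as technical duplicates, and Fe+ and Fe− cultures of the walled strain CC-4532 (CW mt−).

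In a day of light and dark, Chlamydomonas cells grow while the light is on and divide around nightfall, and a large part of the nuclear genome is transcribed at a set time of day. The morning brings genes that build the chloroplast, including the proteins of its ribosomes, enzymes that make fatty acids and enzymes that make chlorophyll from porphyrins. Genes for DNA replication and mitosis follow late in the day, and daughter cells then rebuild their cilia and, in walled strains, a glycoprotein wall rich in hydroxyproline.

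The Fe+ libraries held 11798 and 11558 deposited cells, with totals of 32077582 and 37619380 UMIs. These are more cells than the study counts. The minimum of 1000 UMIs left out 124 cells of experiment 1 and 357 of experiment 2, and 26 cell barcodes occurred in both libraries. The level of FEA1, a secreted protein of iron assimilation that rises in iron-starved cells, matched the labels. It was 340 and 132 CPM (UMIs per 1000000 UMIs of the library) in the Fe+ libraries of experiments 1 and 2, against 2200 and 618 in the Fe− libraries. Genes of cytosolic ribosomes took a larger part of the transcripts in experiment 2 than in experiment 1 in both groups of cells, at 54.8% and 60.5% against 35.4% and 37.6%.

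The values that chose the cells are given as a description. List-rich cells of experiment 1 had 51 to 83 UMIs in the ranking genes per 1000 (median 56), and list-poor cells had 13 to 38 (median 34). In experiment 2 the ranges were 27 to 57 (median 31) and 3 to 18 (median 16). The ranges do not overlap within a library because the ranking fixed them. The median of the list-rich cells in experiment 2 (31) was below that of the list-poor cells in experiment 1 (34), so the groups are relative to their own culture. The distribution was a single continuous hump in both libraries, and the limits cut through it. In experiment 1, 428 cells had exactly 51 ranking UMIs, of which 94 were placed inside the list-rich group at random, and 377 had exactly 38, of which 369 were placed inside the list-poor group. In experiment 2, 446 cells stood at the upper limit of 27 (93 inside) and 580 at the lower limit of 18 (384 inside). The standard deviation between cells was 9.33 ranking UMIs in experiment 1 and 6.81 in experiment 2, where counting error alone would give 6.55 and 4.75.

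**Figure D1:**
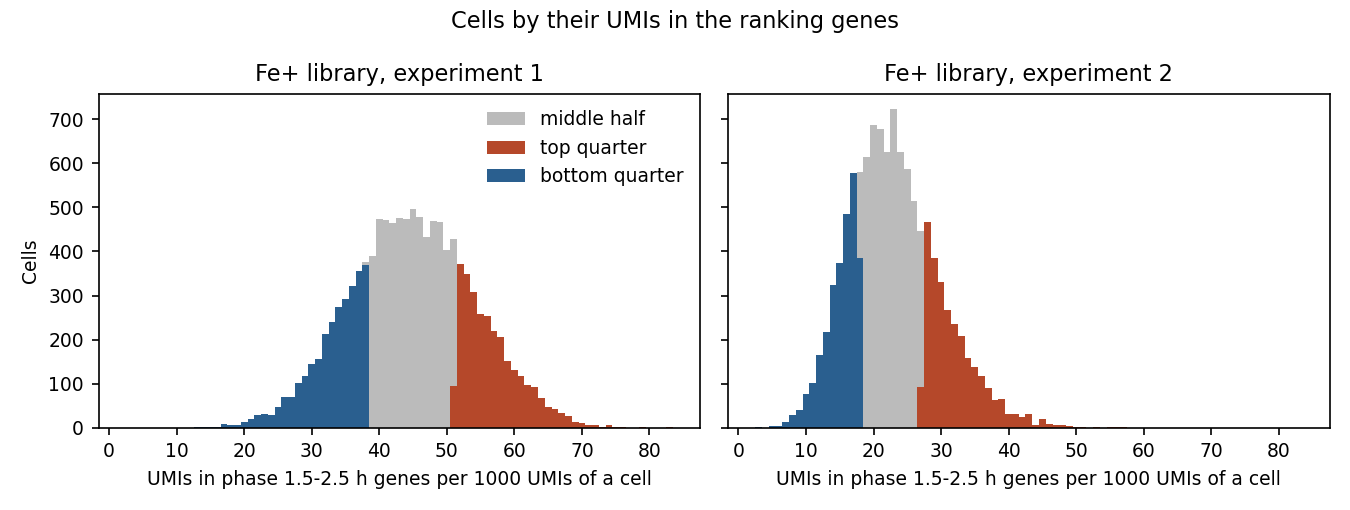
Number of cells (y axis) by their UMIs in the 705 ranking genes per 1000 UMIs (x axis) in the Fe+ library of each experiment, with list-rich cells in red, list-poor cells in blue and the remaining cells in grey. Each library forms a single hump, centred near 45 in experiment 1 and near 23 in experiment 2, and the limits fall on values that 377 to 580 cells share.

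A few abundant genes carried much of the ranking. The 8 with the most UMIs held 34.2% of all ranking UMIs in the compared cells of experiment 1 and 34.4% in those of experiment 2. Among them were PRPL7, PRPL6 and PRPL21, proteins of the large subunit of the chloroplast ribosome, and ACP2, an acyl carrier protein of plastid fatty acid synthesis. PRPL7 (Cre13.g581650) stood at 3257 CPM in list-rich and 1560 CPM in list-poor cells of experiment 1, and at 1275 and 483.2 in experiment 2. The ratio of list-rich to list-poor was 1.38 and 1.68 for ACP2, and 2.0 and 2.49 for PRPL6, in experiments 1 and 2. Of the 41 nuclear genes for chloroplast ribosomal proteins, 36 were themselves ranking genes. The difference was spread over the list, since 566 of the 705 ranking genes in experiment 1 and 595 in experiment 2 had a larger share of the UMIs in the list-rich cells.

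The cell groups also differed in features that the ranking did not use directly. Before thinning, list-rich cells had a median of 2509.5 UMIs in experiment 1 and 2776 in experiment 2, against 2219 and 1975.5 in list-poor cells. They had more detected genes at equal depth, with a median of 420 against 407 genes per 1000 UMIs in experiment 1 and 306 against 260 in experiment 2. Their share of transcripts from the chloroplast genome was higher (1.19% against 0.766%, and 2.74% against 1.88%). Their share in cytosolic ribosomal protein genes was lower (35.4% against 37.6%, and 54.8% against 60.5%). So was the share of the abundant, unnamed genes Cre14.g634279 and Cre14.g634322 together, at 0.58% against 0.705% and 4.84% against 7.33%. These shares were taken over the same 1000 UMIs that ranked the cells. The ranking genes held 5.684% against 3.306% of them, and 3.213% against 1.503%, which leaves less for all other genes. The lower ribosomal share is therefore partly tied to the ranking. Over UMIs outside the list, ribosomal genes had 383800 CPM in the lowest 10% of experiment 1 cells and 372500 in the highest. Cells in between reached 391400. In experiment 2 the values were 618600 and 553200. The part these differences play in the results below was not tested, except where values from cells matched for full UMI count are given.

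To find which other genes differed, the UMIs of genes outside the ranking list were summed per library and group, giving 4 sums, and compared with the quasi-likelihood F test of edgeR, with the library as a block and Benjamini-Hochberg adjustment. A gene was called when its adjusted p was under 0.05 and its direction was the same in both libraries. Of 8069 genes tested, 132 were called higher in list-rich cells (1.64%) and 352 were called lower (4.36%). The changes were uneven in size. The median log2 ratio of list-rich to list-poor cells was 0.69 for the genes called higher and -1.33 for those called lower, and of the 257 genes that changed more than 2-fold, 234 were lower. Levels below are CPM of the UMIs of genes outside the list, given for list-rich and then list-poor cells of experiment 1 and then of experiment 2. They do not carry the scaling factors of the fit. These were 1.36 for both sums of experiment 1, and 0.823 (list-rich) and 0.653 (list-poor) in experiment 2. Comparisons of CPM between the experiments are therefore descriptive.

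Both counts depended on the fit and on the random draw of UMIs. Another draw called 136 genes higher and 354 lower, of which 72 and 265 were among those called here. Without the block, which pairs the sums of each library, no gene was called in either direction (137 genes had an unadjusted p under 0.05), and DESeq2 called 15 higher and 54 lower. When the list-rich and list-poor cells were taken in equal numbers from 10 bins of full UMI count, 23 genes were called higher and 198 lower. The scaling between sums also matters, because in experiment 2 it shifted every ratio by -0.33 on the log2 scale (by less than 0.001 in experiment 1). Without scaling factors, 74 genes were called higher and 187 lower, and 17 of the 352 lower genes had the opposite direction in experiment 2. In all, 10 genes were called higher and 84 lower in the fit reported here and in each of 5 alternatives on the choice of cells or on depth. These were cells matched for full UMI count, a ranking on 500 UMIs with sums over another 500, cells up to 2 times the median UMIs only, cells without the 10% highest in division transcripts, and a ranking outside ribosomal genes that was added after the data had been seen.

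**Figure D2:**
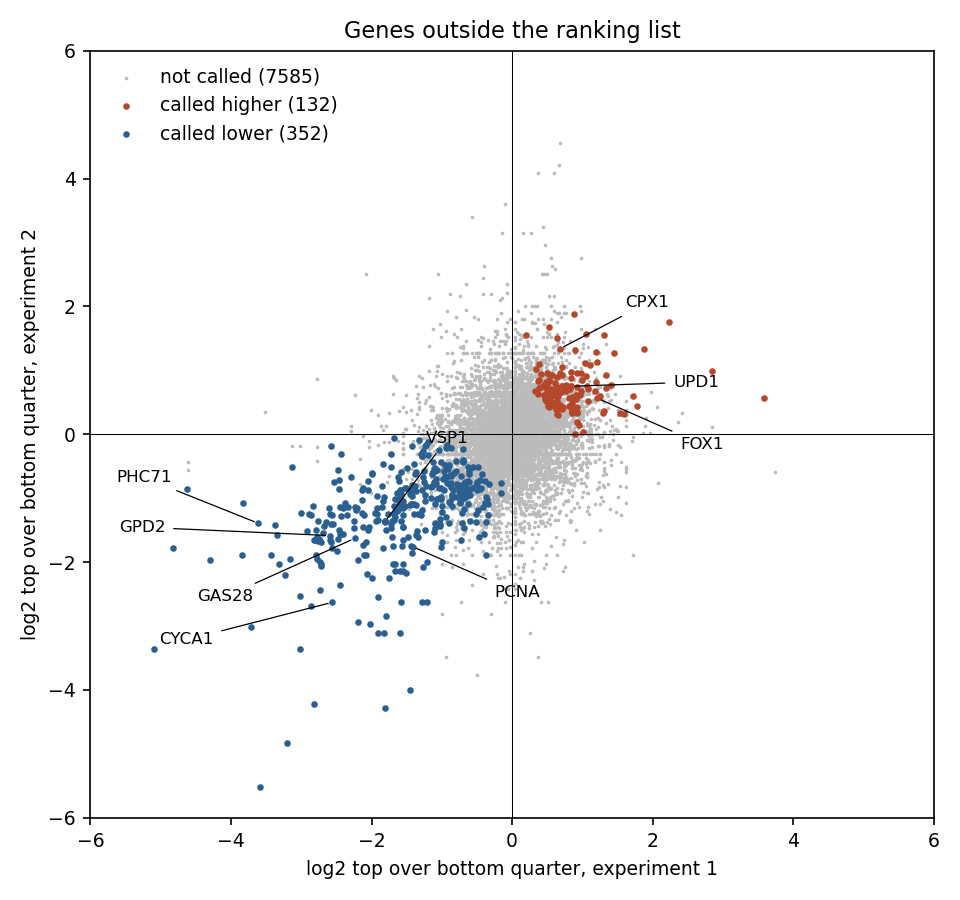
Log2 ratio of list-rich to list-poor cells in experiment 1 (x axis) and experiment 2 (y axis) for the 8069 genes tested, with the 132 genes called higher in red, the 352 called lower in blue and the rest in grey. The called genes lie in the upper right and lower left quadrants by definition; those in the lower left reach further from 0 than those in the upper right.

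Chlorophyll synthesis was the clearest group of higher genes. Of 20 genes on the list, none of which ranked the cells, 19 were tested and 8 rose, with none lower; the list median was 0.48, against -0.0027 for all genes tested. It was 0.36 in experiment 1 and 0.65 in experiment 2. CPX1, coproporphyrinogen oxidase, had 153.7 and 95.69 CPM in experiment 1 and 44.28 and 13.78 in experiment 2, so it was higher in list-rich cells of both cultures (log2 0.91 ± 0.18, SE, n = 2 libraries; adjusted p 2.63e-05, edgeR). CHLI1, a subunit of the Mg-chelatase that commits porphyrins to chlorophyll, had 338.3 and 206.6 in experiment 1 and 132.1 and 54.75 in experiment 2 (0.81 ± 0.16, adjusted p 2.43e-05). GUN4, an activator of this chelatase, rose by a similar amount from a lower level (56.32 and 31.54, then 25.46 and 10.88; log2 0.86, adjusted p 0.00201). UPD1, uroporphyrinogen decarboxylase, stood at 232.2 and 129.7, then 105.5 and 49.68 (0.80 ± 0.16, adjusted p 4.09e-05). In CPM, the list-rich cells of experiment 2 were below the list-poor cells of experiment 1 for CPX1, CHLI1, GUN4 and UPD1. These CPM were not scaled for the larger share of cytosolic ribosomal genes in experiment 2. They do not show how levels differed between the cultures.

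The other chlorophyll genes that rose span the pathway from early to late steps. PBGD1, porphobilinogen deaminase, acts before UPD1 (log2 0.65), CHLM methylates Mg-protoporphyrin (0.50), POR1 reduces protochlorophyllide in light (0.48) and CHLG attaches the phytol tail (0.57). Adjusted p for these ran up to 0.0486, for POR1. UPD1 and GUN4 were among the 10 genes called higher in all 5 alternatives on cells or depth. With cells matched for full UMI count, 4 of the 19 genes were called, and 3 without cells above 2 times the median UMIs. Genes that use the pigment did not pass the test in this fit: none of 20 antenna genes, which encode the chlorophyll-binding proteins (median 0.13), and none of 23 nuclear genes for subunits of the photosystems, the cytochrome b6f complex and the ATP synthase (median 0.096). This depended on the fit. The ranking outside ribosomal genes called 5 of the 20 and 8 of the 23 higher, and the fit without scaling factors 2 and 3.

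Fewer genes of plastid lipid synthesis were higher. Of 42 lipid genes tested outside the ranking list, 3 rose and 1 fell, with a median of 0.21; 9 further lipid genes, ACP2 among them, were ranking genes. BCC1 and BCC2 encode biotin carboxyl carrier proteins of acetyl-CoA carboxylase, the entry step to fatty acids. BCC1 had 646 and 412.9 CPM in experiment 1 and 420.3 and 222.6 in experiment 2 (log2 0.62 ± 0.16, adjusted p 0.00346, edgeR), and BCC2 was 0.50 higher. GPA1, also named PLSB1, a plastid acyltransferase that starts glycerolipid assembly, was at 46.87 and 35.8, then 28.78 and 10.52 (0.66, adjusted p 0.0337), a call kept in 5 of 19 alternatives. The lipid gene that fell was GPD2, a glycerol-3-phosphate dehydrogenase, which was nearly absent from list-rich cells of experiment 1 (0.727 and 5.32) and more than 10 times as abundant in experiment 2 (39.48 and 94.27; log2 -1.68, adjusted p 2.51e-10). None of the 3 lipid genes that rose was called with cells matched for full UMI count, whereas GPD2 was.

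Some genes of iron uptake were higher although all these cells had been given iron. FOX1, a multicopper ferroxidase of the high-affinity iron uptake system, had 137.7 and 59.19 CPM in experiment 1 and 72.32 and 38.8 in experiment 2 (log2 0.92 ± 0.17, adjusted p 5.26e-06, edgeR). FEA1 had 388.8 and 249.5, then 161.6 and 89.56 (0.58 ± 0.16, adjusted p 0.00554). Both were higher in the list-rich cells of both cultures. Of the other markers of iron starvation, TEF22 (log2 0.25), CDJ3 (0.19), CGLD27 (0.048) and FEA2 (0.47) did not pass the test. Ratios of the markers FRE1, FTR1 and MSD3 are not given here. FOX1 and FEA1 therefore do not stand for iron uptake genes as a whole. In the whole iron deficiency list, 4 of 76 tested genes rose and 13 fell, with a median of 0.073. The list comes from bulk cultures of another strain, and among those that fell were GAS28, VSP1, PHC1, PHC21 and PHC28, which encode wall proteins and are described below.

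Transcripts of the chloroplast genome were higher as well. Of 127 genes with a chloroplast identifier, 70 were tested and 19 rose, with none lower and a median of 0.38 (0.61 in experiment 1 and 0.20 in experiment 2). CreCp.g003000 had 245.6 and 129 CPM in experiment 1 and 725.5 and 345.9 in experiment 2 (log2 0.83 ± 0.16, adjusted p 2.36e-05, edgeR). CreCp.g004680 had 18.89 and 8.15, then 122.1 and 39.52 (1.27 ± 0.21, adjusted p 7.92e-08). Both were higher in either group of experiment 2 than in either group of experiment 1. With cells matched for full UMI count, only CreCp.g004680 of the 19 remained among the calls, and the median fell to 0.17. Without the 10 most abundant ranking genes 2 were called higher and 1 lower. Mitochondrial transcripts showed no such shift, since none of 16 tested was called and the median was -0.039 (0.18 without scaling factors).

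Genes of the neighbouring diurnal phases had medians slightly above 0, lower than that of the chlorophyll genes. The medians of the phases read outside the ranking window were 0.13 for 0 h, 0.18 for 0.5 h, 0.22 for 1 h, 0.17 for 3 h, 0.19 for 3.5 h and 0.22 for 4 h. At 3.5 h, 12 of 223 genes rose and 2 fell, and at 1 h, 5 of 128 rose and 1 fell. At 0.5 h 1 of 70 rose, at 3 h 8 of 170 and at 4 h 7 of 102, with none lower. At 0 h 0 of 122 genes were called. Among all genes tested, 1.64% were called higher and 4.36% lower. The genes that rose at 3.5 h included CPX1, CHLI1, GUN4, UPD1 and PBGD1. Those at 4 h included CHLM, POR1, CHLG, BCC1, BCC2 and GPA1. These are chlorophyll and lipid genes already described, so the phase lists are not separate evidence for them. With cells matched for full UMI count, the genes called higher were 7 of 217 at 3.5 h and 2 of 123 at 1 h. They were 1 of 69 at 0.5 h, 1 of 165 at 3 h and 0 of 100 at 4 h. Of all 8048 genes tested with these cells, 23 were called higher. Phases after 4 h were not analysed here, so the time of day to which the list-poor cells would correspond was not examined.

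Among called genes with at least 100 UMIs in each library, the 4 largest increases belonged to genes without a name in the sources used here. Cre09.g399400 had 239.1 and 94.27 CPM in experiment 1 and 225.1 and 94.27 in experiment 2, nearly the same unscaled CPM in both cultures (log2 1.13 ± 0.16, adjusted p 1.98e-10, edgeR). Cre24.g755997 was the most abundant of them, with 1264 and 476, then 1021 and 476.4 (1.09 ± 0.17, adjusted p 1.99e-08). Its list-rich cells of both experiments were above its list-poor cells of both. Cre13.g573900 had 255.8 and 124, then 111.8 and 40.97 (1.07 ± 0.16, adjusted p 5.64e-09). Cre10.g452250 (0.92) followed, and Cre14.g612633 (0.92) came just after FOX1. These 5 unnamed genes were among the 10 called in all 5 alternatives on cells or depth, and each was called in 17 of the 19 alternatives.

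Genes of the extracellular matrix were lower in list-rich cells. Of 14 genes with a pherophorin (PHC), VSP, GAS, PFH or MMP symbol, 12 were tested and 10 fell, with a median of -1.23; they were grouped after their values had been seen. GAS28 and the VSP genes encode hydroxyproline-rich wall proteins. GAS28 (Cre11.g481600) had 40.33 and 191 CPM in experiment 1 and 43.17 and 106.2 in experiment 2 (log2 -1.94 ± 0.17, adjusted p 1.01e-26, edgeR). VSP1 had 31.61 and 111.3, then 18.45 and 38.07 (-1.63 ± 0.19, adjusted p 1.17e-14). For GAS28 and VSP1 the list-poor cells of both cultures were above the list-rich cells of both. VSP3 fell by the same amount as VSP1 (46.51 and 178.6, then 89.67 and 181.7; -1.63).

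Pherophorins, a large family of matrix glycoproteins, fell together. PHC1 was the most abundant, with 192.2 and 500.4 CPM in experiment 1 and 197.4 and 275.2 in experiment 2 (log2 -1.10 ± 0.16, adjusted p 5.72e-10, edgeR). PHC28 (-1.29), PHC21 (-1.16) and PHC71 (-2.79) fell too. PHC71 was the sparsest of these, at 3.63 and 46.43, then 4.43 and 9.43 CPM. Prolyl 4-hydroxylases, which make the hydroxyproline of such proteins, were represented by PFH9 (-1.63) and PFH10 (-0.89), and matrix metalloproteinases by MMP29 (-0.98). The exceptions were PHC5, with 71.58 and 60.25, then 67.16 and 49.31 CPM (0.18, adjusted p 0.668), and PFH13 (-0.81, adjusted p 0.464). With cells matched for full UMI count all 10 of the genes that fell were still called. CC-5390 is a strain without a wall, so these are transcript levels only.

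The largest decreases among well-covered genes were again in genes without a name. Cre09.g388353 had 2.18 and 66.63 CPM in experiment 1 and 11.44 and 31.55 in experiment 2 (log2 -2.96 ± 0.25, adjusted p 5.74e-29, edgeR). Cre06.g278252 had 8.72 and 71.59, then 7.38 and 34.45 (-2.82 ± 0.24, adjusted p 1.05e-28). In both, all list-poor values exceeded all list-rich values. Cre17.g696500 (-2.41), Cre09.g388355 (-2.39), Cre09.g388351 (-2.27), Cre09.g409901 (-2.27), Cre17.g705500 (-2.25), Cre11.g468359 (-2.24), Cre12.g549000 (-2.22) and Cre17.g705300 (-2.06) completed the 10 lowest with at least 100 UMIs in each library. All 10 were also called when the cells were matched for full UMI count and when the cells were ranked on 500 UMIs and summed over another 500.

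Several of the lower genes were direct neighbours in the genome. In the RefSeq annotation of the v5.5 assembly, called genes with no other annotated gene between them formed 15 runs, all of lower genes. How many runs would arise by chance was not computed. Fewer genes were called higher (132) than lower (352), and the chloroplast genes among the higher ones had no position there. The lack of runs among higher genes is therefore not read as a difference. Cre09.g388353 and Cre09.g388355 lie side by side on chromosome 9 (2901591 to 2909768), and Cre09.g409850, Cre09.g409901 and Cre09.g409951 follow each other on the same chromosome (6846215 to 6855906). Another run of 3, Cre02.g080600, Cre02.g080650 and Cre02.g080700, is on chromosome 2 (1035017 to 1055344). PFH9 and PFH10 (Cre02.g084400 and Cre02.g084450) form a run of 2 on chromosome 2. VSP3 (Cre12.g488450) neighbours Cre12.g488500 on chromosome 12. Counts of neighbouring genes may share reads where their transcripts overlap, and this was not examined.

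Cell division genes were lower in list-rich cells and rare in both groups. Of 100 genes on the list, only 39 passed the filter on low counts; 16 fell and none rose, with a median of -0.85 (-0.98 in experiment 1 and -0.69 in experiment 2). PCNA, the sliding clamp of DNA replication, had 29.43 and 78.68 CPM in experiment 1 and 2.58 and 7.25 in experiment 2 (log2 -1.48 ± 0.24, adjusted p 8.3e-08, edgeR). The A-type cyclin CYCA1 had 12 and 75 UMIs in experiment 1 but only 1 and 7 in experiment 2 (-2.64 ± 0.43, adjusted p 1.07e-07). In unscaled CPM, both genes were more than 10 times lower in experiment 2 than in experiment 1. Mitotic genes that fell included the kinase CDKB1 (-2.14), topoisomerase TOP2 (-2.53) and condensin subunit SMC2 (-2.20). MCM2, MCM3, MCM4, MCM5, MCM6 and MCM7, which form the replicative helicase, fell by 1.42 to 1.72 on the log2 scale, although MCM7 had 3 UMIs in each group of experiment 2. RIR2, the small subunit of ribonucleotide reductase, fell from 75.49 to 13.81 in experiment 1 but was at 3.99 and 4.06 in list-poor and list-rich cells of experiment 2.

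The number of division genes called changed with the fit and the cells. DESeq2 called none of the 39 genes and cells matched for full UMI count gave 7 of 36. Without the cells above 2 times the median UMIs, 4 of 32 were called. The share of all transcripts in the division list was 0.0469% in list-rich and 0.0976% in list-poor cells of experiment 1, and 0.022% and 0.0279% in experiment 2.

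Other lists had no calls or few, although some shifted as a whole. None of 34 genes for mitochondrial ribosomal proteins (median 0.11), 12 chloroplast mRNA factors (0.27) or 5 chloroplast ribosomal proteins outside the ranking list (0.36) was called. Of 76 genes for cytosolic ribosomal proteins 1 was called, RPL38, with 674.7 and 927.5 CPM in experiment 1 and 3210 and 4635 in experiment 2 (log2 -0.66, adjusted p 0.0197, edgeR). Only 3 of the 76 had a log2 ratio above 0, against 4022 of all 8069 genes tested. The list median was -0.26 (-0.060 in experiment 1 and -0.46 in experiment 2). It turned to 0.076, with 15 genes called higher, when the cells were ranked by their share of the UMIs outside these ribosomal genes and outside Cre14.g634279 and Cre14.g634322. Among 44 tested genes with cilia symbols, 2 fell, FAP212 (-1.63) and FAP71 (-0.85). This share is near the 4.36% called lower among all genes tested. The median of the 44 was -0.31, and 9 of them were above 0. FAP71 had 15.13 and 15.23 CPM in list-rich and list-poor cells of experiment 2, and its call was kept in 7 of 19 alternatives. The nitrogen deficiency list had 2 lower genes of 34 and the nitrogen sufficiency list 3 higher and 9 lower of 115, VSP3, PHC28, PHC71, PFH9, PFH10 and MMP29 among the latter. RBD2, a rubredoxin, was one of the 3 that rose (740.5 and 516.7, then 567.9 and 332.1; 0.48, adjusted p 0.0486).

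**Figure D3:**
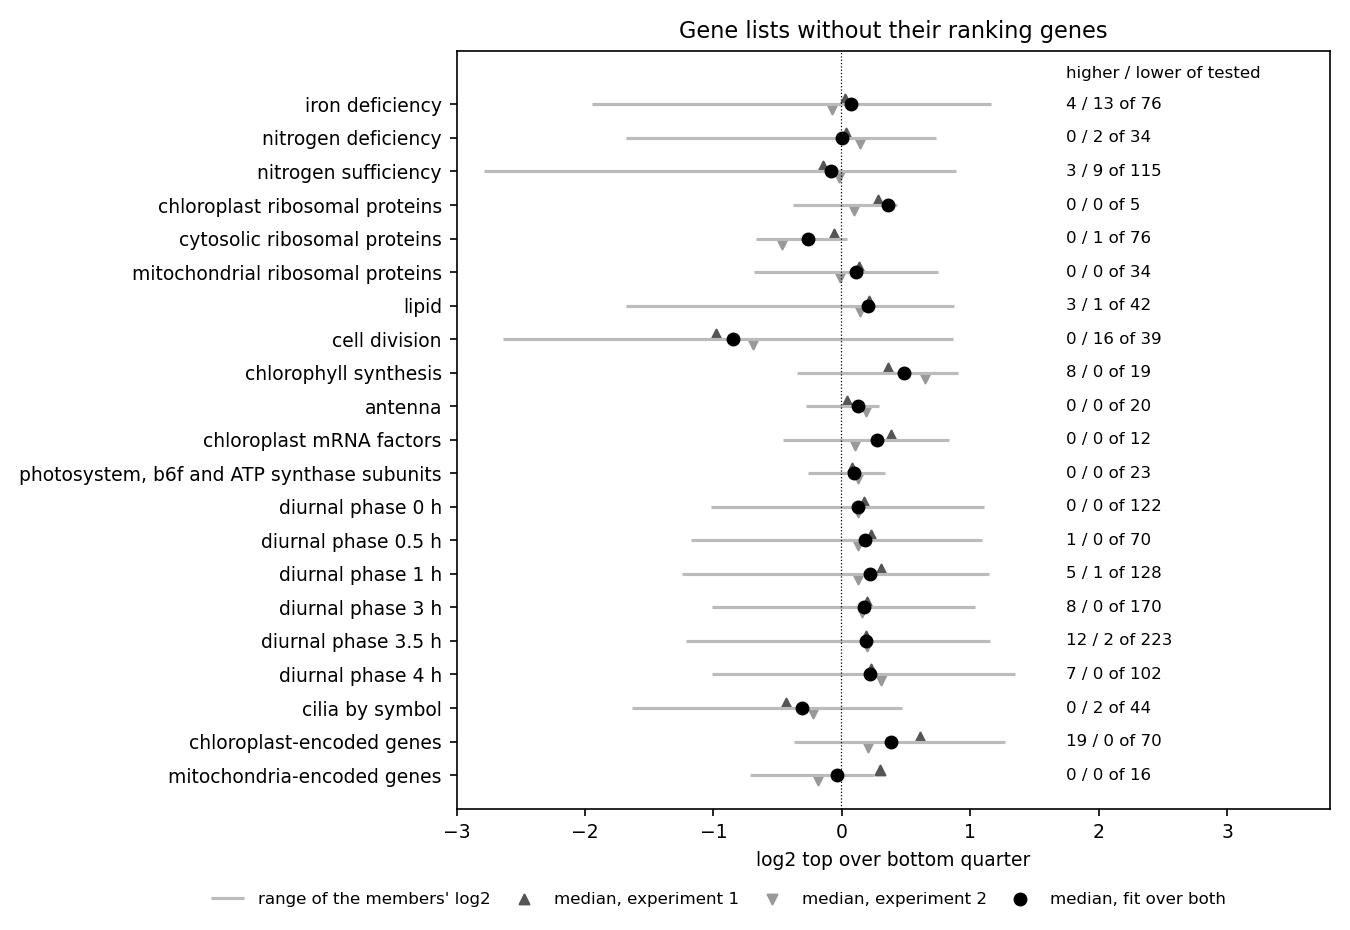
Log2 ratio of list-rich to list-poor cells (x axis) for the gene lists (rows), each without the ranking genes, with the range over members as a line, the median of the fit as a black circle and the medians of experiments 1 and 2 as upward and downward triangles. The numbers at the right count the members called higher and lower of those tested; the dotted line is the median of all genes tested, -0.0027. Chlorophyll synthesis lies to the right (median 0.48, 8 of 19 higher) and cell division to the left (median -0.85, 16 of 39 lower).

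To see how levels ran between the extremes, the cells of each library were also divided into 10 bins of equal size by ranking UMIs, as a description without a test. In experiment 1 the chlorophyll synthesis genes together went from 2022 CPM in the lowest bin to 3138 in the highest, and in experiment 2 from 559.2 to 1369. FOX1 went from 53.77 to 147.9 and from 38.85 to 90.79. In experiment 2 FOX1 lay between 29.31 and 58.51 over the first 7 bins and was higher in the last 3 (60.58 to 90.79). GAS28 went from 233.6 in the lowest bin to 27.39 in the highest in experiment 1, and from 108.4 to 32.43 in experiment 2. VSP1 went from 128.7 to 31.95 in experiment 1, but in experiment 2 it lay between 30.17 and 46.46 over the first 7 bins and between 13.77 and 21.31 in the last 3. Cell division behaved differently, since it dropped from 991.7 to 479.9 over the first 4 bins of experiment 1 and then stayed between 392.5 and 474.9, and in experiment 2 it lay between 136.8 and 205.1 throughout.

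**Figure D4:**
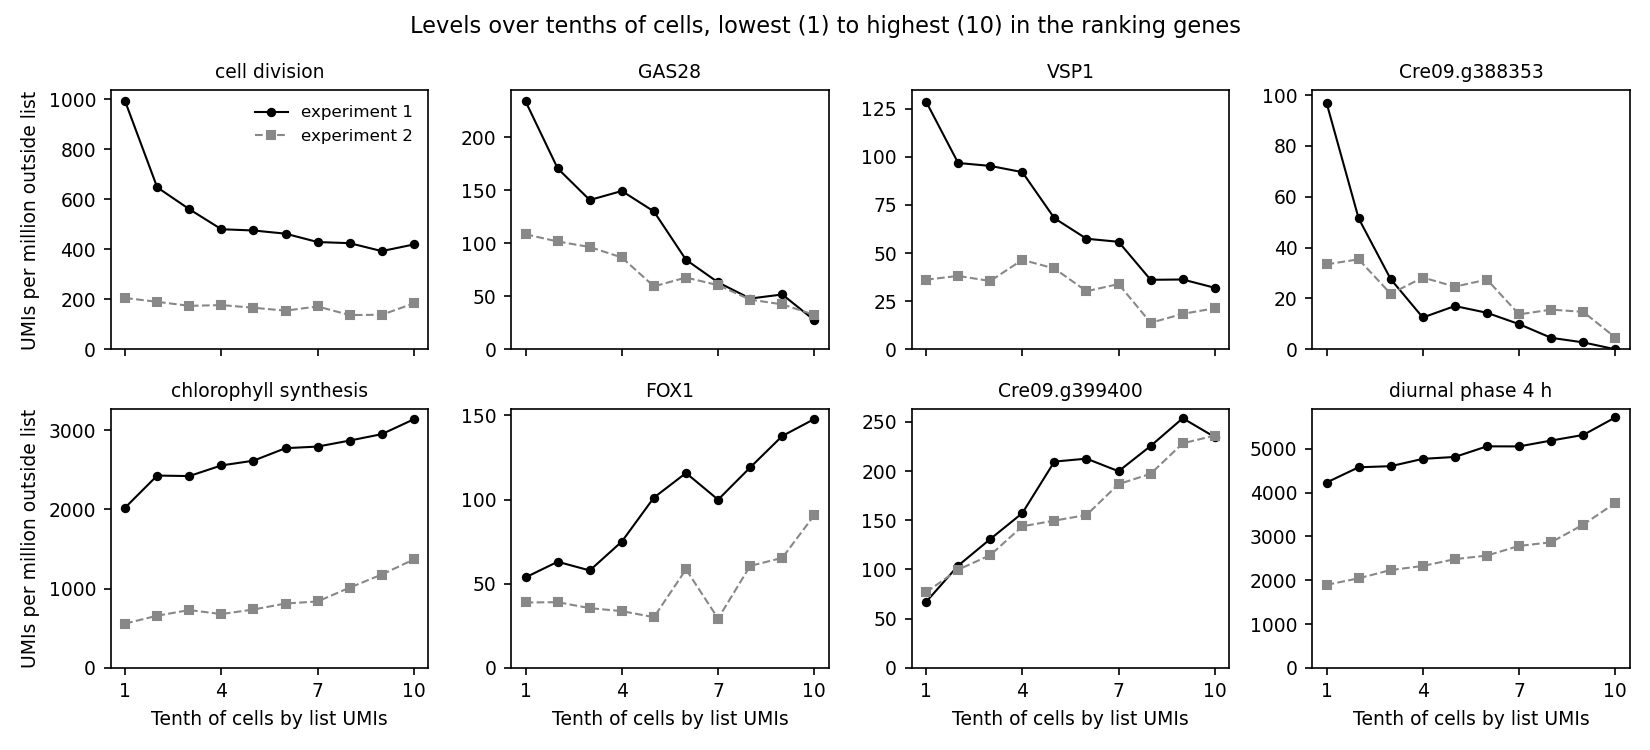
Level in CPM of the UMIs of genes outside the ranking list (y axis) over 10 equal bins of the cells from the fewest (1) to the most (10) ranking UMIs (x axis), for 3 gene lists and 5 genes, in experiment 1 (black circles) and experiment 2 (grey squares). GAS28 and Cre09.g388353 end lower and chlorophyll synthesis, Cre09.g399400 and the 4 h phase end higher than they start in both experiments; in experiment 2, FOX1 and VSP1 differ mainly in the last 3 bins. Cell division falls mainly over the first 4 bins of experiment 1.

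The same split was made in the other 7 libraries, to see whether the genes called in the Fe+ cells took the same direction there. In the Fe− library of experiment 1, 93.9% of the 132 higher genes and 88.1% of the 352 lower genes had the same direction. The shares were 69.9% and 58.1% among the uncalled genes of the same sign. By the study's account, the Fe+ and Fe− cultures of experiment 1 were split from a single culture, so this library is not a fully separate culture. In Mix, which contains cells of the Fe+ culture of experiment 1, the shares were 96.2% and 91.2%, against 71.2% and 58.3% of the uncalled genes. The split of Mix also differed in iron-starvation transcripts, with a log2 ratio of -1.36 for FEA1 and a median of -0.84 for the iron deficiency list. How Fe+ and Fe− cells were divided between its groups was not tested. In the Fe− library of experiment 2 they were 43.2% and 48.6%, close to the 49.9% and 48.8% of the uncalled genes. The N− duplicates also stood below their uncalled genes, at 45.2% and 38.8% and at 42.4% and 41.5%. Their groups were unlike those of the Fe+ pair. Cre14.g634279 and Cre14.g634322 took 8.47% of list-rich and 24.6% of list-poor transcripts in replicate 1, and 9.53% and 55.3% in replicate 2. Median full UMIs were 5988 and 1919 in replicate 2, but 2044 and 5164 in the Fe− library of experiment 1. The part this plays was not tested. No test was made of the shares of genes with the same direction, since each library is a single culture or part of one.

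The libraries of the walled strain differed from each other. In the Fe+ library of CC-4532, 88.9% of the measured higher genes took the same direction (56.6% of uncalled genes) but 53.0% of the lower genes (55.4%). The median of the chlorophyll synthesis list was 3.03 there, and 0.94 in the Fe− library of experiment 1, but -0.018 in that of experiment 2. Of the 10 wall genes that fell in CC-5390, 8 had a log2 ratio above 0 in this library and 2 below. The ratio was 3.01 for PHC21 (122 UMIs), 2.91 for PHC1 (101 UMIs) and 1.01 for GAS28 (45 UMIs), whereas PFH9 (9 UMIs) was at -1.03 and PFH10 (10 UMIs) at -0.21. Of these 10 genes, 10 were above 0 in the Fe− library of CC-4532, 6 and 7 in the Fe− libraries of CC-5390 (experiments 1 and 2), 8 and 7 in the N− duplicates and 0 in Mix. In the Fe− library of CC-4532 the shares were 30.8% of the higher and 29.7% of the lower genes, against 43.5% and 45.9% of the uncalled genes. With the Fe+ library of CC-4532 added to the fit as another block, no gene was called higher and 35 were called lower.

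Whether the difference between the cells itself differed with iron supply was tested in CC-5390 with the Fe+ and Fe− libraries of both experiments (8 sums), by the interaction of group and iron condition in edgeR. None of 7739 genes was called (0.0%), with 397 at an unadjusted p under 0.05. With no difference anywhere, a share near 0.05 of the genes would fall under this limit, so the 397 are not read as a result. GAS28, VSP1, VSP3 and PHC21 were among these 397, with unadjusted p of 0.00378, 0.000379, 0.000411 and 0.00352, and did not pass the adjustment (adjusted p 0.509 to 0.601). They were looked up after their values had been seen, and Cre06.g278252 had a smaller unadjusted p (0.000215). With genes of very low counts kept in, 24 of 15620 were called.

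**Figure D5:**
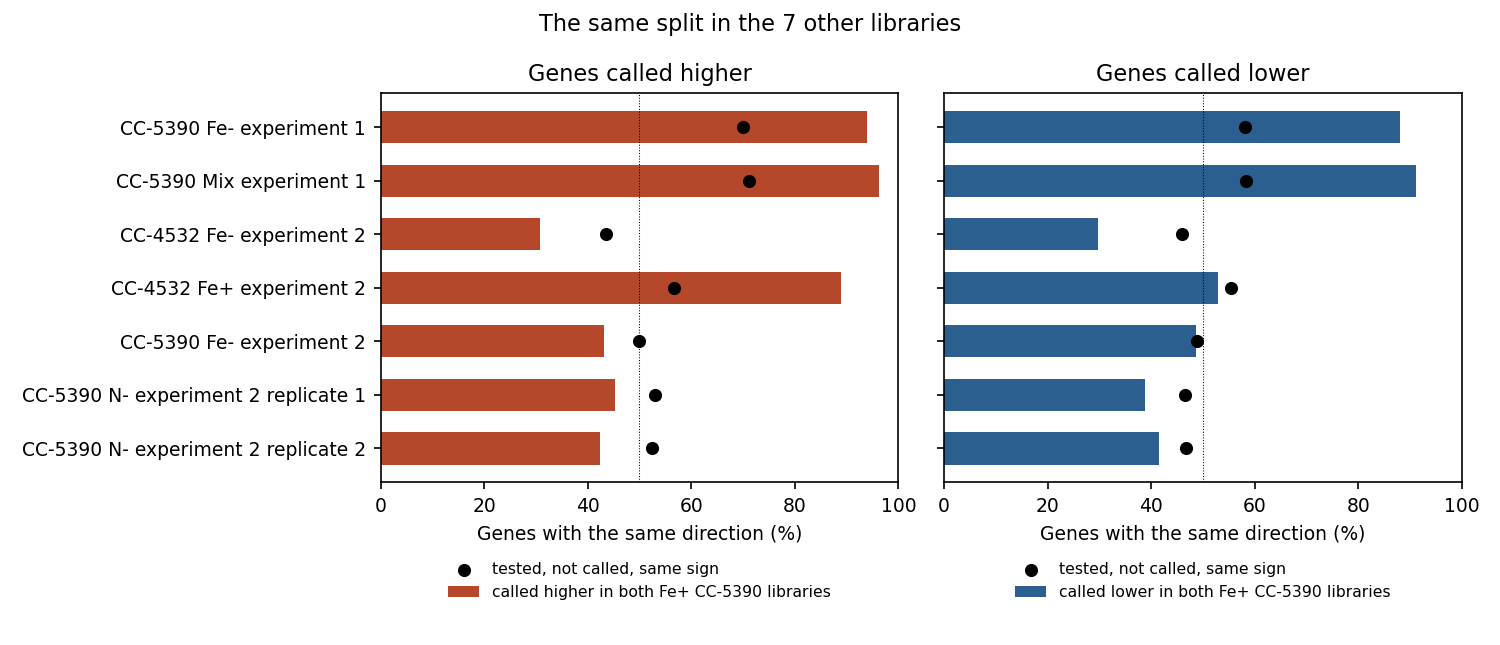
Share of the genes called higher (left, red bars) and lower (right, blue bars) in the Fe+ CC-5390 libraries whose log2 ratio of list-rich to list-poor cells had the same direction in each of the 7 other libraries (rows); black points give the share among uncalled genes of the same sign and the dotted line marks 50%. The Fe− and Mix libraries of experiment 1 show 88.1% to 96.2%, the Fe+ library of CC-4532 shows 88.9% of the higher and 53.0% of the lower genes, and the other 4 libraries lie at or below 48.6%.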

How the data were processed

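Single-cell 3′ transcripts were measured in 9 libraries of cultured cells. The deposited matrices give the UMI count of each gene in each cell, which the authors obtained by aligning reads to the v5.5 genome and counting with Cell Ranger, without normalization; replicates were not pooled. All deposited cells with at least 1000 UMIs were used, thinned without replacement to 1000 UMIs (seed 11); cells with equal ranking counts at a limit were assigned at random. No doublet caller was run, and an alternative left out cells above 2 times the median UMIs. Cells were not treated as replicates: UMIs were summed per library and group, with the library size taken over genes outside the ranking list.

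Sums were tested in edgeR 4.0.16 (R 4.3.3) with filterByExpr, TMM factors and the library as a block, since both groups come from one library; the sums of a library are thus paired by design. With this block, p-values measure how the ratio of the groups varied between 2 libraries, not how levels varied between cultures. The spread of each gene was moderated over all genes, so p and SE are not that gene's own spread alone. A gene can thus be called with unlike ratios, such as CSE22 with 1.015 and 0.0295 in experiments 1 and 2 (adjusted p 0.0256, edgeR). With 4 sums, leaving out a library gives values without a test. Ratios per library had 0.5 UMIs added to each count, and counts below 100 UMIs per library have wide counting error. DESeq2 1.42.0 was an alternative. Thinning and summing used Python 3.11.15 with numpy 2.4.6 and pandas 2.3.3, and figures matplotlib 3.10.9. The test was checked on simulated sums with known changes. The simulation did not include the ranking or thinning of cells, so it does not check the choice of cells.

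The members and the lists were chosen with earlier results of these data known. Gene lists were those of the study, without their ranking genes: iron deficiency, nitrogen deficiency and sufficiency, ribosomal proteins of 3 compartments, lipid, cell division, photosynthesis split by its subheadings, and the phases from 0 h to 4 h of the diurnal list (1998 genes read). Lists that need symbols the sources do not give (clock, carbon concentration, Calvin cycle, starch, nitrogen assimilation, acetate, chaperones, proteasome, photoprotection, respiration, histones, gametes and heat stress) were not used here. Named genes were, of those called with at least 100 UMIs in each library, the 10 largest and 10 smallest ratios and the 6 of each with a symbol; the called members of each list with the 3 largest ratios; and the 8 most abundant ranking genes. Other called members of lists, and the uncalled wall and iron genes, were named after their values were seen.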

Additional observations from a re-analysis of the deposited data

Results flagged for a closer look

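In 4 gene lists the median log2 ratio of list-rich to list-poor cells had one sign in both Fe+ libraries of CC-5390 and the other sign in both Fe− libraries. The difference between the conditions was not tested for these medians. For the 44 genes with cilia symbols the medians were -0.43 and -0.23 in Fe+ and 0.16 and 0.13 in Fe− (experiments 1 and 2), a mean difference of -0.47. For the 23 nuclear genes of photosystem, cytochrome b6f and ATP synthase subunits they were 0.077 and 0.13 against -0.15 and -1.07, a mean difference of 0.71. For the 5 chloroplast ribosomal protein genes outside the ranking list they were 0.28 and 0.098 against -0.18 and -0.13, a mean difference of 0.35. For the 115 nitrogen sufficiency genes they were -0.15 and -0.025 against 0.17 and 0.032, a mean difference of -0.19. No gene of any list passed the interaction test of group and iron condition in edgeR after adjustment.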

How the results depend on the processing

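The counts of genes called, 132 higher and 352 lower, were recomputed under 19 alternatives. Without the replicate block 0 and 0 were called. DESeq2 called 15 and 54, and a fit without scaling factors 74 and 187. With 500 UMIs per cell the counts were 47 and 128, with all UMIs summed 386 and 885, and with cells ranked on 500 UMIs and summed over another 500 they were 29 and 128. With cells matched for full UMI count they were 23 and 198, without cells above 2 times the median UMIs 21 and 139, and with the Fe+ library of CC-4532 added 0 and 35. Ranking by module score called 210 higher, ranking without the 10 most abundant ranking genes called 70 higher, leaving out the 10% of cells highest in division called 85 higher, and groups of 10% in place of 25% of the cells called 229 lower. Under the remaining alternatives both counts stayed within 1.5 times. These included a ranking outside ribosomal genes that was chosen after seeing the data (141 and 333). A similar count does not mean the same genes. Of the genes this ranking called, 69 and 271 were among the calls reported. Another random draw called 136 and 354, of which 72 and 265 were shared with the calls reported. The interaction test called 24 genes with no filter and 0 with other factors. Of the 53 genes chosen by rule, none reversed under any alternative. With a single library left (leave-one-out) there is no test. All 53 kept their direction there by definition, because a call required the same direction in both libraries. Causes were not tested. Low counts limit the division genes and most sparse genes in experiment 2.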
